A study of Mus musculus with 7 samples.

Results

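The 5 genes described here cover how thyroid hormone is received, supplied and answered in the mouse cerebellum: the receptor genes Thra and Thrb, the deiodinase gene Dio2, and the hormone-responsive genes Klf9 and Hr. They were chosen by symbol and role, not by a threshold on their values, and make up 5 of the 55450 genes counted. All 5 had values in every library and passed the filter on low counts. Poly(A) RNA was sequenced from whole cerebella of C57BL/6 pups at postnatal day 15, 3 of them wild type (WT) and 4 heterozygous for an L3mbtl3 knockout allele (L3mbtl3 KO/+). L3mbtl3 encodes a chromatin reader of methylated lysine. No treatment or other allele is named for either genotype, and the sources used here do not give the deleted part of L3mbtl3, the litters or the sexes. The heterozygotes keep 1 wild-type allele, and whole tissue was homogenised, so each value is a mean over all cell types.

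Thyroid hormone circulates mainly as the prohormone T4, which enters the brain through membrane transporters. Type 2 deiodinase, the product of Dio2, removes an iodine from T4 and makes the active hormone T3, in the brain chiefly in astrocytes and tanycytes. T3 binds nuclear receptors encoded by Thra and Thrb, which sit on DNA with a retinoid X receptor, recruit corepressors without hormone and exchange them for coactivators with it. In the cerebellum the hormone drives granule cell migration, Purkinje cell dendrite growth and myelination during the first postnatal weeks. Klf9, a Krüppel-like transcription factor, and Hr, the nuclear corepressor hairless, are direct targets of the liganded receptor in the developing brain.

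Both receptor genes make more than 1 protein, and the sequences at the points where the forms part are shown because the transcript values below depend on them. They were read from the GRCm38 genome along the GENCODE M21 transcripts, 36 bases on each side of the junction, plus strand, 5′ to 3′. At the Thra splice choice on chromosome 11 all 3 forms share the bases in lower case, at 98764370 to 98764405, and the capitals mark what follows in each form. Thra-202 reads on in the same exon from 98764406 and codes for the hormone-binding receptor. Thra-201 joins an exon 3751 bases further on, at 98768157, and codes for the form that does not bind T3. Thra-203, an incomplete model, joins the same last exon 117 bases later, at 98768274.
Thra-202: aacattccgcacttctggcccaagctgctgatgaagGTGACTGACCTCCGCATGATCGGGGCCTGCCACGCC
Thra-201: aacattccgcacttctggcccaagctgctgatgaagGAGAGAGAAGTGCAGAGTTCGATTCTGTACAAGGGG
Thra-203: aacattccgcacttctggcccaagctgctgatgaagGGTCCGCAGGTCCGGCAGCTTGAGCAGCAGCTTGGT

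The Thrb forms differ at the other end of the protein. Thrb-201 and Thrb-202 splice different first coding exons, in capitals, to a shared exon on chromosome 14 that begins at 18002528, in lower case. The capitals of Thrb-201 end at 17963321 and those of Thrb-202 end at 17982201.
Thrb-201: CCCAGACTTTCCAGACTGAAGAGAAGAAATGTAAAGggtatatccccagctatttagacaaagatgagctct
Thrb-202: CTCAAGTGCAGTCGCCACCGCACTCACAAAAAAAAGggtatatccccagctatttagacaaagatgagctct

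The libraries held 29248360 to 43761792 expected counts, RSEM's estimates of how many reads each gene produced. L3mbtl3 was measured at 22.6, 26.8 and 23.2 CPM (counts scaled to a common library size) in WT, against 19.7, 17.4, 22.3 and 23.0 CPM in KO/+. The genotypes overlapped, and the log2 fold change of KO/+ relative to WT was -0.23 (SE 0.12, adjusted p = 0.957, edgeR). Whether reads from the deleted part enter these counts is not known, so L3mbtl3 does not check the labels firmly. All 8 granule neuron markers and all 5 Purkinje cell markers had counts in every library. The 4 forebrain markers summed to 9.85 to 17.95 TPM (transcript units per length, scaled to a common total), chiefly from Neurod6. The libraries also differed, without following genotype, in choroid plexus RNA, chiefly Ttr, with a summed marker level of 11.3 to 1811 TPM in WT and 15.1 to 2314 TPM in KO/+, and in the level of the division marker Mki67, described below. Red blood cell markers summed to 2781 to 3054 TPM in WT, and to 5059, 6969, 4913 and 2727 TPM in KO/+ replicates 1, 2, 3 and 4. The part of blood in the values was not tested.

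Across genotypes the 5 genes stayed within narrow limits. None of the 5 passed an adjusted p of 0.05 by edgeR's quasi-likelihood test, none had an unadjusted p below 0.05 by edgeR, DESeq2 or limma-trend, and in all 5 the libraries of the genotypes overlapped. Among all 16813 genes tested 0% passed the adjusted threshold, 3.15% had an unadjusted edgeR p below 0.05, and 3.96% had libraries that did not overlap between genotypes, so a count of 0 in 5 genes is close to that background. The 95% intervals of the log2 fold change ran from -0.12 to 0.25 for Thra, -0.39 to 0.25 for Thrb, -0.18 to 0.22 for Dio2, -0.09 to 0.27 for Klf9 and -0.18 to 0.28 for Hr. The estimates were above 0 in 4 of 5, against 48.8% of all genes tested.

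**Figure D1:**
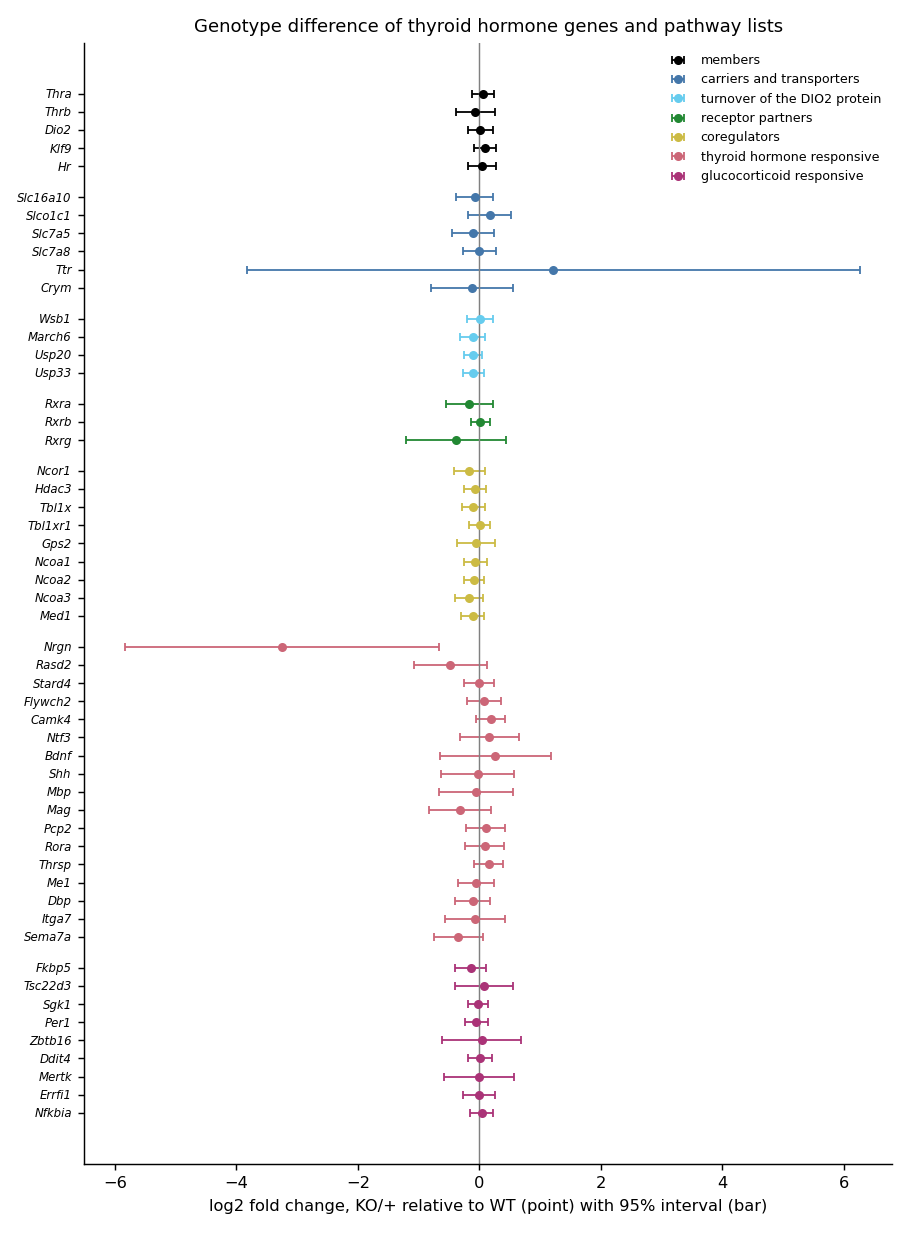
Log2 fold change of KO/+ relative to WT for the 5 genes (top, black, labelled members) and genes of the pathway and glucocorticoid lists, coloured by list, with the 95% interval of each from the edgeR fit. The intervals of all 5 genes span 0, and Nrgn is the only gene shown whose unadjusted interval does not.

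In level per transcript length the order was Thra, Klf9, Hr, Dio2 and Thrb, and it was the same in all 7 libraries. Mean TPM over the 7 libraries was 389 ± 7.63 (SD, n = 7) for Thra, 98.7 ± 4.07 for Klf9, 44.0 ± 6.64 for Hr, 17.95 ± 1.29 for Dio2 and 4.11 ± 0.67 for Thrb. Every neighbouring pair was separated in each library, by 3.95-fold in mean TPM between Thra and Klf9, 2.24-fold between Klf9 and Hr, 2.45-fold between Hr and Dio2, and 4.37-fold between Dio2 and Thrb. The spread between libraries followed another order. The coefficient of variation of CPM over the 7 libraries was 4.33% for Thra, and only 6.58% of the 10519 genes with at least 10 CPM varied less. It was 5.64% for Klf9, 7.03% for Dio2, 9.12% for Hr and 12.3% for Thrb, against a median of 9.78% over those genes.

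**Figure D2:**
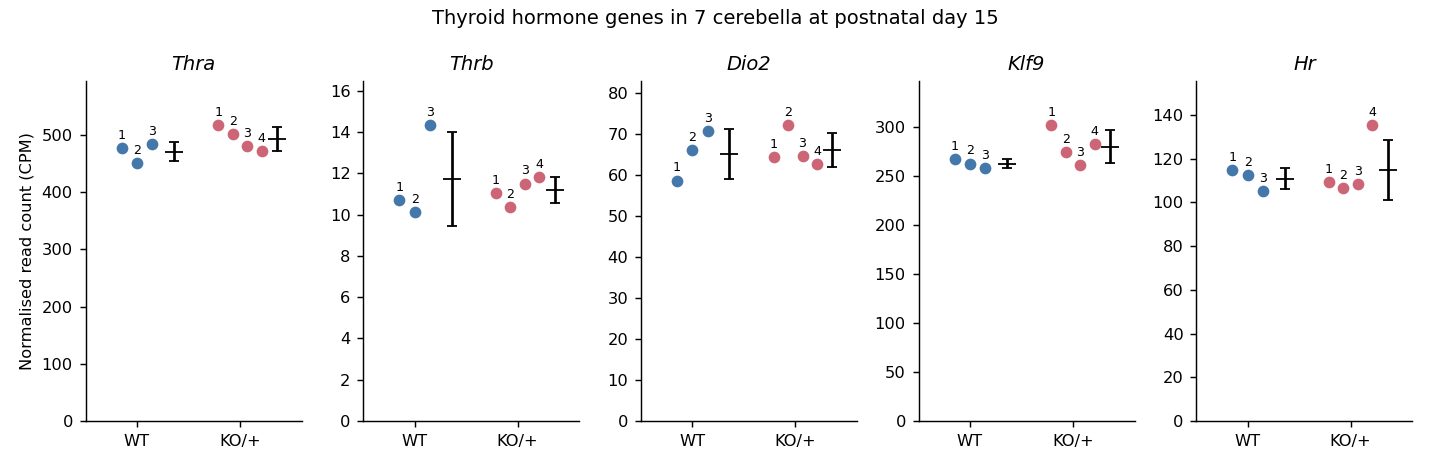
CPM of the 5 genes in each of the 7 libraries, grouped by genotype, with the mean and SD of each group. The genotypes overlap for every gene, and Hr in KO/+ replicate 4 stands above the other libraries.

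Thra (chromosome 11, 98740638 to 98769006, plus strand) was the dominant receptor gene. It was measured at 477, 452 and 484 CPM in the WT libraries and 517, 502, 481 and 472 CPM in the KO/+ ones. Of the KO/+ libraries, 2 lay inside the WT range and the other two above it. The means were 471 ± 17.0 CPM (SD, n = 3) in WT and 493 ± 20.2 CPM (n = 4) in KO/+, a log2 fold change of 0.07 (SE 0.08, adjusted p = 0.957, edgeR) that became 0.03 without WT replicate 2. In TPM the means were 388 ± 7.28 and 391 ± 8.75. In homogenised tissue, a change in the number of cells of a type and a change in RNA per cell cannot be told apart, which holds for every value here.

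Thrb (chromosome 14, 17660261 to 18038090, plus strand) was present at about 1% of the summed TPM of both receptor genes. That sum includes the Thra form that does not bind T3. The T3-binding Thra-202 was at 25.1 to 30.4 TPM, and Thrb as a whole at 3.45 to 5.15 TPM. Thrb was measured at 10.7, 10.2 and 14.3 CPM in the WT libraries and 11.1, 10.4, 11.5 and 11.8 CPM in the KO/+ ones. WT replicate 3 was the highest of all libraries, and the other 6 lay between 10.2 and 11.8 CPM. The means were 11.7 ± 2.27 CPM in the WT libraries and 11.19 ± 0.62 CPM in the KO/+ ones, with a log2 fold change of -0.07 (SE 0.14, adjusted p = 0.962, edgeR) that became 0.10 without WT replicate 3. Thrb made up 1.06%, 0.94% and 1.29% of the summed TPM of both receptor genes in WT and 0.89%, 0.93%, 0.96% and 1.24% in KO/+. The difference of the means was -0.09 percentage points (exact two-sided permutation p = 0.4), and with 3 against 4 libraries the smallest p that test can give is 0.0571.

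Most Thra RNA was assigned to transcripts that end in the exon of the form that does not bind T3. Thra-201, with 492 codons of which the last 122 follow the splice choice, was at 289 ± 7.28 TPM in WT and 292 ± 5.33 TPM in KO/+. Thra-202, which encodes the T3-binding receptor of 410 codons and shares the first 370 with Thra-201, was at 28.9 ± 1.65 TPM in WT and 26.9 ± 1.79 TPM in KO/+. The incomplete Thra-203 was at 62.8 ± 1.88 and 68.7 ± 6.02 TPM. RSEM's deposited isoform percentages were 73.1% to 76.2% for Thra-201, 6.53% to 8.02% for Thra-202 and 15.7% to 19.1% for Thra-203.

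Of the TPM of these 3 transcripts, Thra-201 and Thra-203 together held 92.9%, 91.8% and 92.5% in WT and 93.4%, 93.2%, 92.7% and 92.9% in KO/+. Of the 4 KO/+ libraries 3 were above every WT library, and KO/+ replicate 3 lay inside the WT range. The means were 92.4% ± 0.52 and 93.1% ± 0.30, a difference of 0.68 percentage points (exact two-sided permutation p = 0.114). The share of Thra-202, the remainder, was 6.60% to 8.17%. The transcript fits gave log2 fold changes of 0.07 (SE 0.08) for Thra-201, -0.05 (SE 0.08) for Thra-202 and 0.18 (SE 0.11) for Thra-203, none past the adjusted threshold among 44375 transcripts tested, where 0% passed it and 2.71% had an unadjusted p below 0.05.

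The last exon of Thra-201 lies over the end of Nr1d1, which encodes the circadian repressor REV-ERBα and is read from the other strand. Of the 2452 exon bases of Thra-201, 263 (10.7%) also lie in Nr1d1 exons, as do 130 of the 1240 bases of Thra-203 (10.5%) and 0 of those of Thra-202. All of the overlap lies past the splice choice, where these forms part from Thra-202. The 263 bases are among the 366 coding bases of Thra-201 past that point. The 130 bases are the whole last exon of Thra-203. The library kit marks strand, but no source used here gives the strand setting of the counting, so the share of reads from Nr1d1 in the Thra values is not known. Nr1d1 was at 53.1, 54.9 and 71.2 CPM in the WT libraries and 57.7, 60.0, 47.3 and 58.8 CPM in the KO/+ ones. Per length it was at 31.1 to 45.7 TPM, and Thra was at 379.5 to 403.3 TPM.

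**Figure D3:**
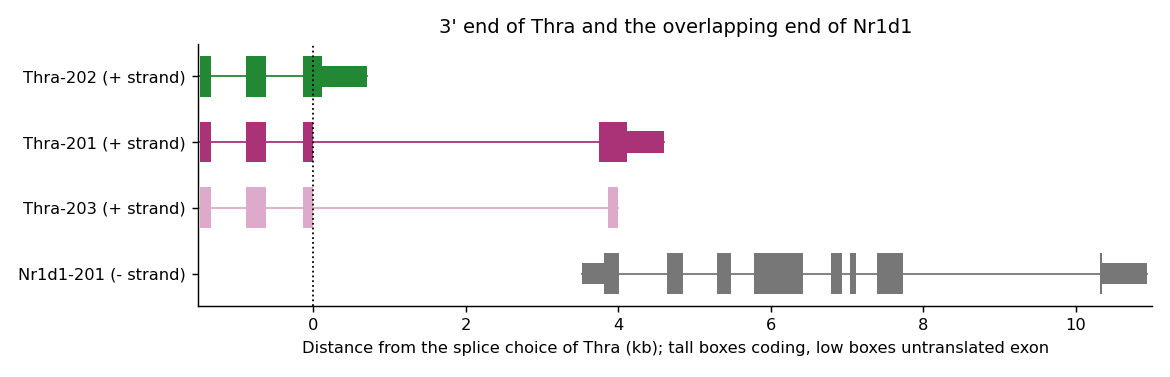
Exons of Thra-201, Thra-202, Thra-203 and of Nr1d1, at the 3′ end of Thra, drawn to scale in kb from the Thra splice choice, with coding parts as tall boxes and untranslated parts as low ones. Thra-202 ends before the exon that Thra-201 and Thra-203 share, and that exon overlaps the 3′ end of Nr1d1.

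The remaining annotated Thra transcripts had few counts. The short noncoding Thra-204 had 0 to 9.01 counts, which an effective length of 47.5 to 57.1 bases turned into 0 to 7.32 TPM. It failed the filter on low counts and was not tested. Thra-206, a noncoding transcript, was the only transcript of the 5 genes whose libraries did not overlap, lower in KO/+ with 4.09 to 13.4 counts per library. Its log2 fold change was -0.64 (SE 0.41, adjusted p = 1.00, edgeR), and 2.14% of all transcripts tested were lower without overlap.

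The Thrb reads were too few to split its forms closely. Thrb-202, with 475 codons and the first exon of the TRβ2 form, known from pituitary and retina, was at 1.83 to 2.76 TPM and took 49.8% to 59.1% of Thrb TPM. Thrb-201 and Thrb-203, which encode the 461-codon TRβ1 form, were at 0.35 to 1.24 and 0.64 to 1.32 TPM. Of the 6200 bases of Thrb-202, 2204 are in neither of the others, and 1531 of these lie beyond the 3′ end of Thrb-201, not in the first exon (673 bases). The deposited values do not show whether the reads given to Thrb-202 came from its first exon or from that longer 3′ end, so its share is no measure of the TRβ2 form.

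**Figure D4:**
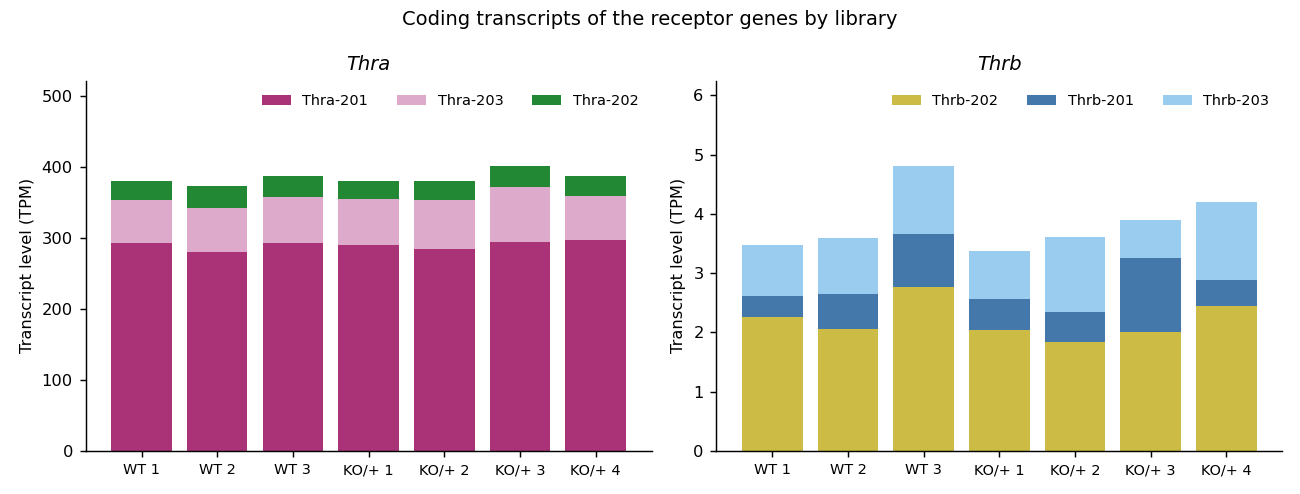
Stacked bars of the TPM of the 3 main coding transcripts of Thra (left) and Thrb (right) in each library, with separate vertical scales. Thra-201 exceeds Thra-202 in all 7 libraries. Thrb-202 has the highest assigned TPM of the Thrb transcripts, which is no measure of the TRβ2 form.

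Dio2 (chromosome 12, 90724552 to 90738438, minus strand), the source of T3 within the tissue, differed little between libraries. It was measured at 58.7, 66.04 and 70.8 CPM in the WT libraries and 64.4, 72.1, 64.8 and 62.8 CPM in the KO/+ ones. WT held both the lowest library and the second highest. The means were 65.2 ± 6.12 CPM in the WT libraries and 66.04 ± 4.16 CPM in the KO/+ ones, with a log2 fold change of 0.02 (SE 0.09, adjusted p = 0.981, edgeR). Its sign was not stable and became -0.03 on the log2(TPM + 1) scale. The annotation gives Dio2 a single transcript, at 16.2 to 19.6 TPM.

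The other deiodinases were close to absent. Dio1, the type 1 enzyme, was at 0.08 to 0.49 TPM from 1 to 6 counts, and Dio3, which inactivates the hormone, at 0.10 to 0.29 TPM from 4 to 10 counts. Both failed the filter on low counts and were not tested. Dio2 exceeded them in all 7 libraries.

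Of the 4 genes for turnover of the DIO2 protein none passed the test. They are the ubiquitin ligase components March6 and Wsb1 and the deubiquitinases Usp20 and Usp33. Of these, 3 had estimates below 0, and the median log2 fold change was -0.10, against -0.005 over all genes tested. Usp20 was at 68.4, 67.6 and 67.2 CPM in the WT libraries and 62.6, 62.5, 60.0 and 67.4 CPM in the KO/+ ones (log2 fold change -0.10, SE 0.07).

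Of the 7 carriers and transporters of thyroid hormone, all were tested, none passed, and 5 had estimates below 0 (median -0.005), but 1 of 7 without KO/+ replicate 1 (median 0.04). The T4 transporter gene Slco1c1 had an estimate of 0.17 on the log2 scale (SE 0.15), which became 0.06 without KO/+ replicate 3 and 0.28 without KO/+ replicate 4, and the large neutral amino acid transporter gene Slc7a5 had -0.11 (SE 0.15). Ttr, the T4-binding carrier made in choroid plexus, spanned 1.52 to 938 CPM in the WT libraries and 3.45 to 1349 CPM in the KO/+ ones. Its log2 fold change of 1.22 had an SE of 2.12 and ranged from 0.63 to 6.78 when single libraries were left out, the highest without WT replicate 2. Aqp1, another choroid plexus marker, was at 0.33 to 0.42 TPM in the 3 libraries with the lowest Ttr and at 5.67 to 8.33 TPM in the other 4. Of the 7 choroid plexus markers only Clic6 overlapped between these libraries. It was at 9.77 TPM in WT replicate 3, low in Ttr, and at 8.19 TPM in KO/+ replicate 1, high in Ttr. The part of choroid plexus in these values was not tested.

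Klf9 (chromosome 19, 23141226 to 23168134, plus strand) had an estimate slightly above 0. It was measured at 267, 263 and 259 CPM in the WT libraries and 302, 275, 262 and 283 CPM in the KO/+ ones. All WT libraries lay below 3 of the KO/+ libraries, and KO/+ replicate 3 lay inside the WT range. The means were 263 ± 4.42 CPM in the WT libraries and 280 ± 17.0 CPM in the KO/+ ones, a log2 fold change of 0.09 (SE 0.08, adjusted p = 0.957, edgeR). In TPM the means were 97.2 ± 2.30 and 99.8 ± 5.08. At least 99.6% of its TPM was assigned to its coding transcript.

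Hr (chromosome 14, 70552212 to 70573548, plus strand) was even in 6 of the 7 libraries. It was measured at 115, 113 and 105 CPM in the WT libraries and 109, 106, 108 and 135 CPM in the KO/+ ones. KO/+ replicate 4 was the highest, and the other 3 KO/+ libraries lay inside the WT range. The means were 111 ± 4.92 and 115 ± 13.7 CPM, with a log2 fold change of 0.05 (SE 0.10, adjusted p = 0.961, edgeR) that became -0.05 without KO/+ replicate 4.

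The TPM of Hr depended on a short noncoding transcript. Hr-202 is 321 bases long, with an effective length of 29.7 to 36.6 bases, so 4.79 to 10.4 counts gave it 4.67 to 14.4 TPM. Noncoding transcripts took 15.0% to 31.6% of the TPM of Hr and 0.13% to 0.34% of its counts. Over the coding transcripts alone Hr was at 33.6, 34.1 and 31.0 TPM in WT and 29.3, 29.2, 32.6 and 40.6 TPM in KO/+. The coding means were 32.9 ± 1.67 and 32.9 ± 5.36 TPM, and the order between Klf9 and Dio2 held on that measure too.

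Of 17 other genes known to respond to thyroid hormone in brain or liver, none passed the adjusted threshold, 10 had estimates below 0 and 7 above, and the median was -0.03. Without WT replicate 3 the balance turned, with 6 below, 11 above and a median of 0.08. The myelin gene Mbp had -0.06 (SE 0.27), the kinase gene Camk4 had 0.19 (SE 0.10) and Thrsp, a lipogenic response gene, had 0.16 (SE 0.10). Sema7a, which encodes a membrane-anchored semaphorin, was the only one without overlap. It was at 128, 119 and 121 CPM in the WT libraries and 69.4, 86.0, 115 and 117 CPM in the KO/+ ones. The values in KO/+ replicates 1 and 2 were far below WT and the other two only just so, and the log2 fold change was -0.34 (SE 0.17, adjusted p = 0.957, edgeR), where 1.8% of all genes tested were lower without overlap. The 4 oligodendrocyte precursor markers also summed lower in every KO/+ library than in WT, to 56.9, 65.8, 98.3 and 94.3 TPM against 101 to 106 TPM. Of these markers only Gpr17 was itself lower without overlap, at 20.6 to 40 TPM in KO/+ against 42.62 to 56.77 TPM in WT. Pdgfra overlapped, C1ql1 was highest in KO/+ replicate 3 (31.14 TPM) and Cspg4 in KO/+ replicate 4 (6.25 TPM). No other marker list summed without overlap between genotypes, and this one was singled out after the values were seen. How many of all genes were lower without overlap in TPM was not counted, so neither the sum nor Gpr17 is shown to be particular. The part of these cells was not tested.

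Nrgn, which encodes the postsynaptic calmodulin-binding protein neurogranin, was the only listed gene with an unadjusted p below 0.05, against 1.9% of all genes tested in that direction. It rested on WT replicate 3. Nrgn was at 5.23, 3.98 and 128 CPM in the WT libraries and 4.98, 4.81, 4.95 and 4.53 CPM in the KO/+ ones, and its log2 fold change went from -3.25 (adjusted p = 0.957, edgeR) to 0.07 without that library. Rasd2, the striatal Ras-like gene, was at 13.0, 13.4 and 25.4 CPM in the WT libraries and 10.6, 10.9, 11.9 and 16.3 CPM in the KO/+ ones, with -0.48 (SE 0.26), or -0.09 without WT replicate 3. The 4 forebrain markers summed to 9.85 TPM in that library, the lowest of the 7, of which 9.06 TPM was Neurod6, a gene lower in all 3 libraries low in Mki67. Another of them, Emx1, was highest there, at 0.17 TPM. The 5 brainstem markers summed to 4.45 TPM there against 0.79 to 1.5 TPM elsewhere, with Hoxa5 at 0, nearly all of it from the serotonergic gene Tph2. WT replicate 3 also had the highest summed oligodendrocyte markers, 6175 TPM. The part of other cells in the Nrgn and Rasd2 values was not tested.

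Klf9 is also induced by glucocorticoids, so genes known to answer them were set beside it. Of 10 such genes 9 were tested, Plin4 being too low, none passed, 5 had estimates below 0, and the median was -0.005. The balance moved with the setting. On log2(TPM + 1) 8 of 9 were below 0 (median -0.04). Without WT replicate 1 it was 8 of 10 (median -0.09), and without KO/+ replicate 4 it was 3 of 10 (median 0.03). Fkbp5, a chaperone gene, had -0.15 (SE 0.11) and Tsc22d3, the leucine zipper gene known as GILZ, had 0.08 (SE 0.21).

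Of the 3 retinoid X receptor genes, which encode the partners of the thyroid hormone receptors, none passed, and 2 had estimates below 0 (median -0.16), or 1 without WT replicate 3 (median 0.02). Rxrb was the most abundant per length, at 49.7 to 58.6 TPM, with Rxra at 4.95 to 8.91 TPM and Rxrg at 0.65 to 1.6 TPM. Of 10 coregulator genes, again none passed, but 9 had estimates below 0, with a median of -0.09, where 51.2% of all genes tested were below 0. With single libraries left out the number below 0 was 8 to 10, and the genes share their libraries, so this is a description of 7 libraries. The corepressor gene Ncor1 had an estimate of -0.16 (SE 0.11), and Hdac3, which encodes a deacetylase of its complex, had -0.07 (SE 0.08).

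Libraries also differ in proliferation, which in the postnatal cerebellum comes chiefly from granule cell precursors. Mki67 levels formed separate clusters that hold both genotypes. KO/+ replicates 1 and 2 and WT replicate 3 were at 61.4 to 63.6 CPM, and the other 4 libraries at 152 to 209 CPM. No correlation with Mki67 is given for that reason, and neither cluster holds enough libraries for one.

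Thra separated along with Mki67 in CPM but not in TPM, and Hr in TPM but not in CPM. How many of all genes separate in this way was not counted, so neither is shown to be particular. Thra was at 484 to 517 CPM in the 3 libraries low in Mki67 and at 452 to 481 CPM in the other 4, a gap of a few CPM. In TPM it was at 384.2 to 393.2 in the former and 379.5 to 403.3 in the latter, so the groups overlapped on that scale. Hr was at 36.43 to 40.81 TPM in the former and 42.51 to 56.39 TPM in the latter. Its coding transcripts were at 29.17 to 30.97 and 32.55 to 40.6 TPM. The CPM ranges overlapped for Thrb (10.4 to 14.3 and 10.2 to 11.8 CPM), Dio2 (64.4 to 72.1 and 58.7 to 66.04 CPM), Klf9 (259 to 302 and 262 to 283 CPM) and Hr (105 to 109 and 108 to 135 CPM). These groups were formed from the data and were not tested. Low Mki67 occurred in 2 of 4 KO/+ libraries and 1 of 3 WT libraries, and with log2 Mki67 as a covariate the log2 fold change between genotypes was 0.04 for Thra, -0.10 for Thrb, -0.02 for Dio2, 0.08 for Klf9 and 0.09 for Hr, none past the threshold.

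**Figure D5:**
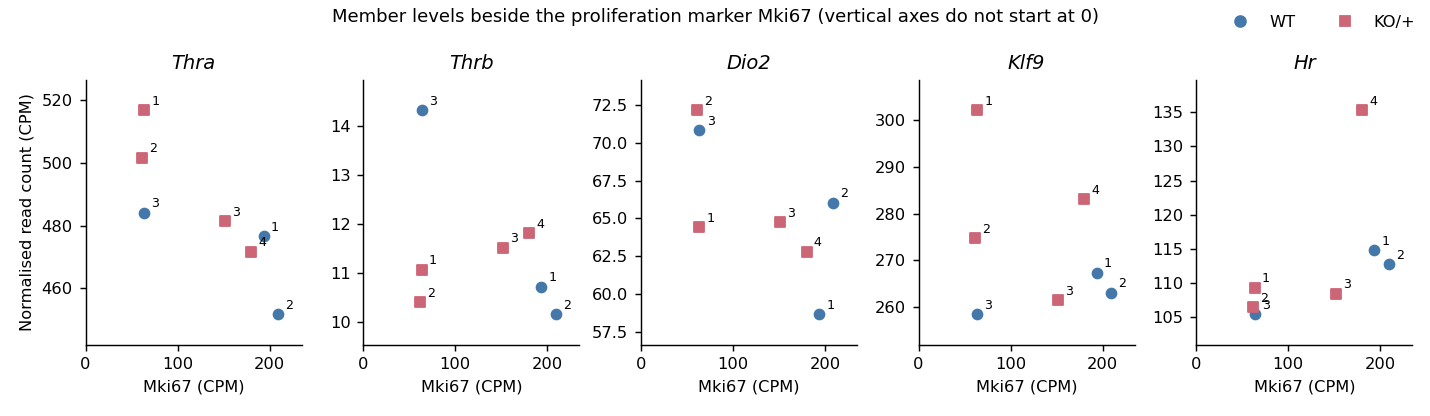
CPM of each of the 5 genes against CPM of Mki67 in the 7 libraries, coloured by genotype, with vertical axes that do not start at 0. In CPM, though not in TPM, Thra is higher in all 3 libraries low in Mki67 than in the other 4. The other genes overlap in CPM, but in TPM, not drawn here, Hr is lower in all 3.

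The genes whose CPM followed each of the 5 most closely were different ones for each. Over 7 libraries and 10518 other genes of at least 10 CPM, Pearson's r with Thra was 0.997 for Uxs1, 0.992 for Mau2 and 0.991 for Lactb, and 345 genes reached at least 0.9. Thrb was followed by Ppif (0.968), Abi3bp (0.964) and Zdhhc8 (0.955), and 27 genes reached 0.9. For Dio2 they were Btbd10 (0.967), Tbc1d9 (0.965) and Tbcel (0.955), with 35 genes at that level. Klf9 had Bbs7 (0.959), Dhrs13 (0.957) and Celf4 (0.956), with 64. Hr had Adgrb2 (0.979), Uimc1 (0.969) and Pcbp3 (0.966), with 41. All these points share the same 7 libraries, with both Mki67 clusters, and their scaling factors.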

How the data were processed

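RNA from 3 WT and 4 L3mbtl3 KO/+ cerebella was sequenced. The authors deposited expected counts, TPM and isoform percentages per gene and transcript, made with Trimmomatic 0.39, STAR 2.5.2a and RSEM 1.3.1, per the submitters' processing notes. Expected counts were rounded and tested with edgeR 4.0.16 (filterByExpr, TMM, robust quasi-likelihood, Benjamini-Hochberg adjustment over all 16813 genes or 44375 transcripts tested). CPM are TMM-scaled. For shares, the exact permutation test enumerated all 35 assignments of genotype (SciPy 1.17.1). DESeq2 1.42.0 and limma 3.58.1 on log2(TPM + 1) were alternatives, and the code was tested on simulated data. Over all genes, the SE of the log2 fold change had a median of 0.14. No pair of libraries of the same genotype agreed within sampling noise. Libraries with the same number did not deviate together (r = 0.253, -0.109 and -0.205), so they were not paired. The genes and lists were chosen with earlier results of these data known. The genes named are the 5, L3mbtl3, Mki67, genes of the fixed lists and, for each of the 5, the 3 with the highest r of log2 CPM. Some listed genes are not reported here by name. Tables of the whole series were not used, since the files of single libraries hold these values.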

Additional observations from a re-analysis of the deposited data

Results flagged for a closer look

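Hr in KO/+ replicate 4, at 135.3 CPM, stood further from the other 3 KO/+ libraries (106 to 109 CPM) than Dixon's 95% criterion for 4 values allows. It was 1 of 24 groups of 4 libraries examined, and chance alone flags about 1 group in 20. The coding transcripts of Hr were also highest in that library, at 40.6 TPM.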

How the results depend on the processing

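The 5 genes kept their direction in 36 of 40 values under other settings and in 31 of 35 with a library left out, and none passed the threshold (smallest adjusted p 0.808 and 0.694). The exceptions under other settings were Dio2, at -0.0305 on log2(TPM + 1), -0.0319 on log2(TPM + 0.1) and -0.0183 with Mki67 as a covariate, and Hr, at -0.0488 with the replicate number as a block, which left out KO/+ replicate 4. Other genes that changed sign were Mbp (0.118 with the block) and Tsc22d3 (-0.0532 with the Mki67 covariate). The fit with the block called 1 gene, Eif3j2, which was also called with no block once KO/+ replicate 4 was left out.

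With single libraries left out the log2 fold changes ranged from 0.028 to 0.0855 for Thra, -0.171 to 0.0996 for Thrb, -0.0586 to 0.0815 for Dio2, 0.0547 to 0.112 for Klf9, -0.0497 to 0.0854 for Hr, -3.8 to 0.0651 for Nrgn, -0.202 to 0.00649 for Slc7a5, -0.179 to 0.0511 for Nr1d1, -0.219 to 0.22 for Mbp and -0.0707 to 0.37 for Tsc22d3. They kept their sign but moved by over 1.5 times for Sema7a (-0.456 to -0.213), Ncor1 (-0.253 to -0.112), Hdac3 (-0.123 to -0.0258), Camk4 (0.123 to 0.247), Thrsp (0.0969 to 0.213) and Fkbp5 (-0.218 to -0.0841). The Thrb share differed by -0.17 to 0.00799 percentage points, positive without WT replicate 3. Between 0 and 1 gene was called: Wdfy1 without WT replicate 2, Fam220a without WT replicate 3 and Eif3j2 without KO/+ replicate 4. Between 0 and 2 transcripts were called, 2 of Fam220a and 1 of Eif3j2 in those last fits. These genes were named after their values were seen, and the cause was not tested. The Thra share without Thra-203, an alternative chosen after seeing the data, differed by 0.69 percentage points.

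At this depth Thrb, with 258 to 457 counts assigned to Thrb-202 and fewer to each other transcript, limits the comparison of receptor forms.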

Other observations

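Promoter windows of 300 bases from RefSeq (GRCm38.p6) were found for Dio2, Thrb (2 windows) and Klf9, and were searched on both strands. The receptor hexamer AGGTCA was in 5340 of 32851 windows (16.3%), among them 1 of the 2 Thrb windows but not those of Dio2 or Klf9. Its direct repeat spaced by 4 bases was in 5 windows (0.0152%), none of them a window of these genes. The cAMP response element TGACGTCA was in 588 windows (1.79%), among them that of Dio2. A match is a description of the letters and not a binding site.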
